A study of Mus musculus with 29 samples.

Results

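The windows described here cover the Toll-like receptor genes Tlr1, Tlr2, Tlr3, Tlr4, Tlr5, Tlr6 and Tlr9, the co-receptor genes Cd14 and Ly96, and the adaptor gene Myd88. They were chosen by name, as the windows that the deposited methylation table assigned to any of these 10 genes. Of 260686 windows in the table, 46 carried one of the names, in 9 of the genes. None carried the name Myd88. The table came from whole-genome methyl-sequencing (WGMS) of lung DNA from 29 Balb/c mice, which the series describes as female and 13 weeks of age. Sham offspring (n = 7) came from dams given saline, and PM offspring (n = 7) from dams given fine airborne particulate matter (PM2.5) through the nose before mating, in gestation and until weaning. Neither of these groups received ovalbumin (OVA), and the study describes nebulised saline as the control treatment. It also describes the lungs of all groups as taken after lung function tests with methacholine. Sham-OVA (n = 7) and PM-OVA (n = 8) offspring of the corresponding dams were sensitised to OVA with alum and then challenged with aerosolised OVA, an egg protein that induces allergic airways disease (AAD) in mice. The labels do not tie offspring to dams, so littermates may have been counted as separate samples, and p-values measure the spread between these libraries.

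Toll-like receptors are sentinels of innate immunity that recognise molecular patterns of microbes. TLR1, TLR2, TLR4, TLR5 and TLR6 sit at the cell surface, where TLR2 pairs with TLR1 or TLR6 to bind bacterial lipopeptides, TLR4 responds to lipopolysaccharide and TLR5 to flagellin. TLR3 and TLR9 signal from endosomes, where they sense double-stranded RNA and unmethylated CpG DNA. CD14 and MD-2 (the product of Ly96) hand lipopolysaccharide to TLR4, and MyD88 carries the signal of every Toll-like receptor apart from TLR3. In the lung these genes are used by macrophages, neutrophils and dendritic cells and, to differing degrees, by epithelium. Methylation of cytosines in CpG dinucleotides tends to be low at active promoters and enhancers and high elsewhere in the genome.

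A window was a run of neighbouring CpGs, and its value is the percentage of DNA methylation (%DNAm) averaged over them. Of the 46 windows, 36 held exactly 100 CpG cytosines, counting both strands, and the fullest held 127. Their lengths ran from 793 to 12896 bp with a median of 5006 bp. Windows are numbered here along each gene in the direction of transcription. In 8 genes the first window held the annotated gene start, whereas the start of Cd14 lay 40 bp beyond its first window. All 46 windows had a value in all 29 libraries. The methods of the study describe high genome-wide coverage of each library. The table itself gives no read counts for a window, so no counting error can be attached to a window value. A separate check concerned sex. Sham replicate 1 had values in 1224 of the 1230 windows on the Y chromosome, against 29 to 46 in the other libraries, and 5.95% of its X windows were under 10 %DNAm, against 0.268 to 0.488% elsewhere, which goes against the description of all animals as female. The 10 genes are autosomal, and counts are given without that library where they lead.

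The promoter sequences of the genes that the results turn on are shown first, because they differ in how many CpGs they offer for methylation near the gene start. They are RefSeq promoters on GRCm38.p6, from 250 bases before to 50 bases after a transcription start, and CpG dinucleotides are in capitals. The table of promoters held 7 of the 10 genes, with Tlr4, Cd14 and Ly96 not among them. Tlr6 has 2 promoters in the table. The upstream one, shown here (chr5:64959999-64960298, minus strand), lies wholly inside the window that lost the most methylation after OVA, and it has 7 CpGs. The other (chr5:64959117-64959416) has 5 CpGs, and 89 of its bases lie in that window and the rest in or near the next. The Tlr3 promoter (chr8:45410331-45410630, minus strand) has 10, and the Tlr2 promoter (chr3:83841559-83841858, minus strand) has 11. The Tlr9 promoter (chr9:106222348-106222647, plus strand) has 0 CpGs, although it lies inside a window that fell after OVA in both kinds of offspring.
Tlr6: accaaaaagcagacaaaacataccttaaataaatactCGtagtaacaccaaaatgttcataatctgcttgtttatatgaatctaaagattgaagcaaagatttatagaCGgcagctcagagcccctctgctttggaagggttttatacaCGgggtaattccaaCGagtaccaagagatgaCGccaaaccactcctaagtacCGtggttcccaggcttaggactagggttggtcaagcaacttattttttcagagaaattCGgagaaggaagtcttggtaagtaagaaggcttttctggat
Tlr3: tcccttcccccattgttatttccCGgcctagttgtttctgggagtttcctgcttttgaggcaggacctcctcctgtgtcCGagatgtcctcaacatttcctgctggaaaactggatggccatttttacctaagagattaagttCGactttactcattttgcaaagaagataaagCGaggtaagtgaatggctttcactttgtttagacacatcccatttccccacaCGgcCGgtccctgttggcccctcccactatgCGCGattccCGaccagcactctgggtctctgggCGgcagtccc
Tlr2: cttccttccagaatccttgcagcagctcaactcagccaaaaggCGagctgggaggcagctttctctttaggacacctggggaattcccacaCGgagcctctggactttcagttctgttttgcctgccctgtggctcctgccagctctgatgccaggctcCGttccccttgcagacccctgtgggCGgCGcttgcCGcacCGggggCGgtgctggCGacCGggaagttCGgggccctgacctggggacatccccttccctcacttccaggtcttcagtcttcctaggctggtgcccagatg
Tlr9: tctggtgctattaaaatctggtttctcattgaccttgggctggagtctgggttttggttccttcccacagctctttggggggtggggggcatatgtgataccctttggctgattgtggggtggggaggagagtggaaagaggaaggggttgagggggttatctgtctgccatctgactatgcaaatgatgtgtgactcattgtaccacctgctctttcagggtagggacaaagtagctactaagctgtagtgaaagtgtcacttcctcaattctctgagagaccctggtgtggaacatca

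Across all 32817 promoters in the RefSeq table the median was 7 CpGs. The methylation of single CpGs cannot be read from the table, since each window value averages over a longer stretch. For Tlr9 the %DNAm of the start window therefore describes CpGs outside these 300 bases. Letters of 3 motifs were searched on both strands. The ETS letters GAGGAAG occurred 2 times in the Tlr9 promoter and were found in 13.6% of all promoters, and the AP-1 letters TGANTCA occurred once there and were found in 7.81% of all. The CRE letters TGACG occurred once in the Tlr6 promoter shown, 0 times in the other Tlr6 promoter, and were found in 20.8% of all promoters. A match describes the letters and does not show that a factor binds.

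The resting pattern came first. In Sham lungs most of these genes were heavily methylated, with 34 of the 46 windows over 60 %DNAm, 6 between 40 and 60 and 6 under 40. The window means ran from 0.351% in the first window of Cd14 to 90.5% in the second window of Tlr9, with a median of 75.5%. The window with the gene start was lower than every other window of its gene in Tlr2 (28.1%), Tlr6 (34.3%), Tlr3 (60.6%) and Tlr1 (69.6%). In Tlr5 (30.1%), Ly96 (55.6%), Tlr9 (65.6%) and Tlr4 (68.5%) at least 1 window further in was lower than that with the start, such as Tlr9 window 3 at 32.7% and Tlr5 window 3 at 25.5%. Windows with denser CpGs tended to be less methylated (Pearson's r = -0.566 and Spearman's rho = -0.191 over 46 windows), and without the 2 densest windows r was -0.312. These coefficients describe windows of the same libraries and are not a test.

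**Figure D1:**
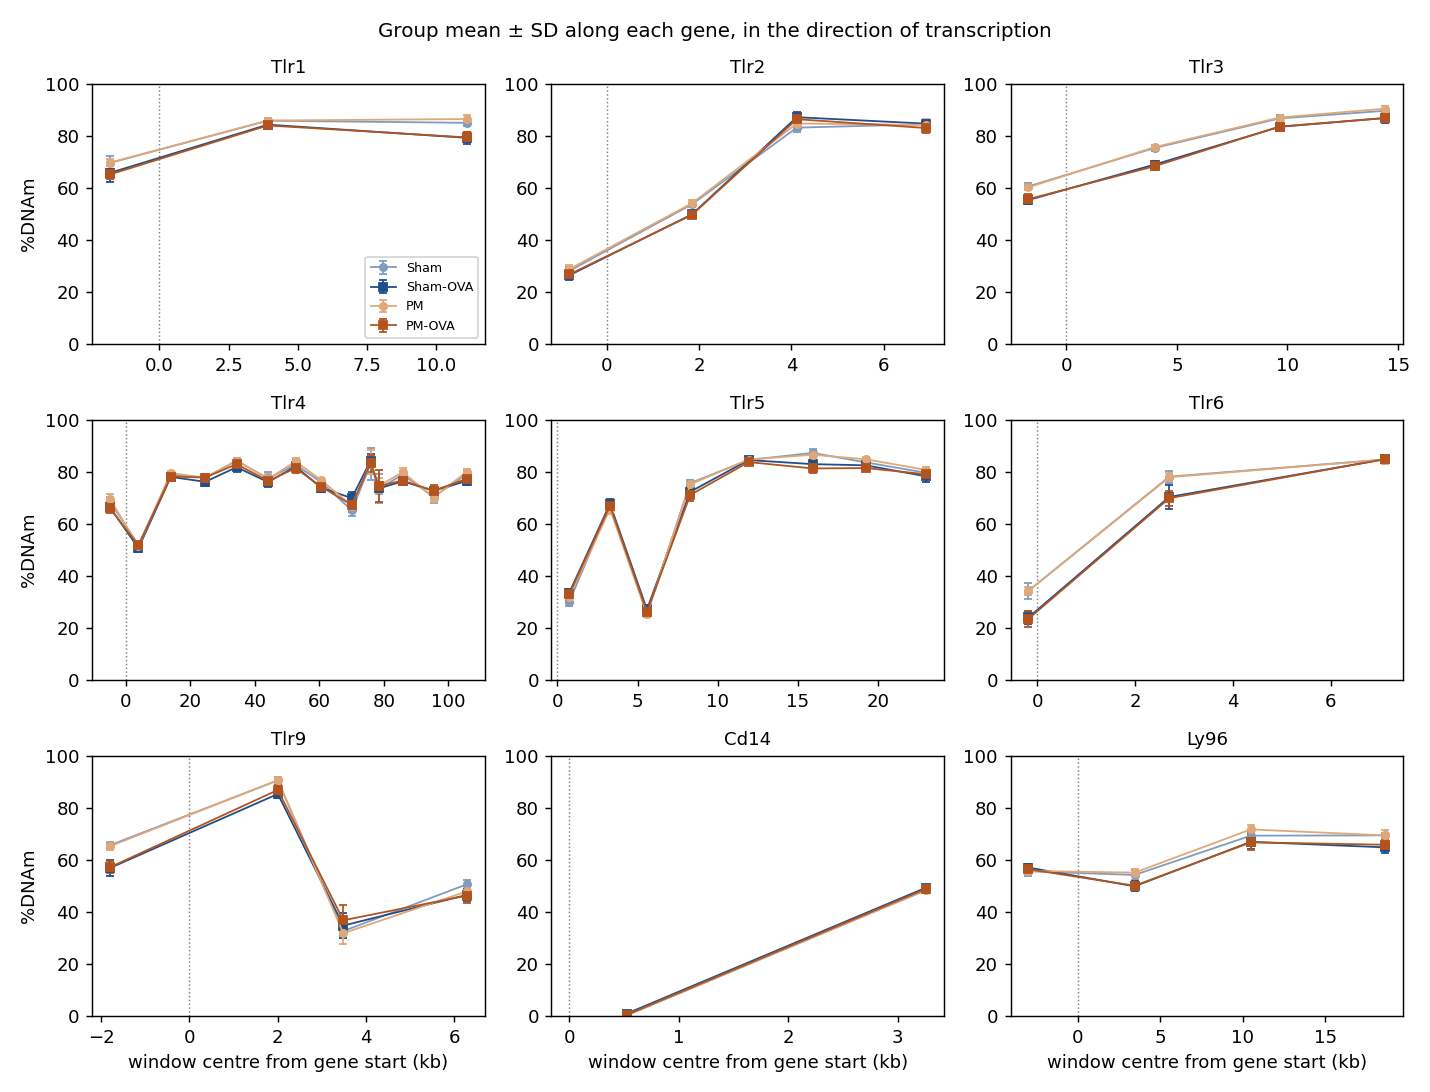
Group mean %DNAm ± SD (y axis, percent) of each window against the distance of its centre from the annotated gene start (x axis, kb, dotted line at the start), in 1 panel per gene, with circles for Sham and PM and squares for Sham-OVA and PM-OVA. Both OVA groups lie under both unchallenged groups along Tlr3 and in the first 2 windows of Tlr6 and Tlr9, and Sham and PM curves nearly coincide.

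OVA challenge lowered methylation over much of the receptor genes. In Sham offspring 25 of the 46 windows differed after OVA (limma adjusted p under 0.05), 21 lower and 4 higher. This was 54.3% of the windows, against 35.6% of all tested windows (13.3% higher and 22.3% lower). In PM offspring 24 windows differed, 23 lower and 1 higher, or 52.2% against 44.1% of all windows (9.26% higher and 34.8% lower). The median difference over these windows was -1.66 percentage points for Sham and -1.96 for PM, beside -0.414 and -1.03 points over all windows. With each library centred on the median of its windows there were 25 windows in Sham (7 higher and 18 lower) and 25 in PM (9 higher and 16 lower), beside 36.1% (18.3% higher and 17.8% lower) and 37.6% (18.9% higher and 18.7% lower) of all windows. Falls thus took a smaller share on that scale, among all windows as well. Of the windows called without centring, 3 in Sham and 7 in PM lost the call, all in Tlr1, Tlr4 and Ly96. Other windows, not called without centring, were called as rises with it in both kinds of offspring. The results by window below are without centring unless stated. Without Sham replicate 1 there were 26 and 24 windows, beside 32.9% and 44.4% of all windows.

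Libraries with and without OVA did not overlap in 9 windows in Sham and in 13 in PM offspring, and each of these was lower after OVA. Among all windows, 8.58% and 12% were without overlap. Of the 25 windows called in Sham and the 24 called in PM, 19 were shared, all lower, which was 76% and 79.2% of the respective calls, beside 76.7% and 61.9% for calls shared in the same direction over all tested windows. The OVA differences of the 46 windows in Sham and in PM offspring, which share no library, ran together with r = 0.907 and Spearman's rho = 0.915, and 41 (89.1%) had the same sign. Over all tested windows r was 0.879 and 81.8% had the same sign, so this likeness was not particular to the receptors.

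**Figure D2:**
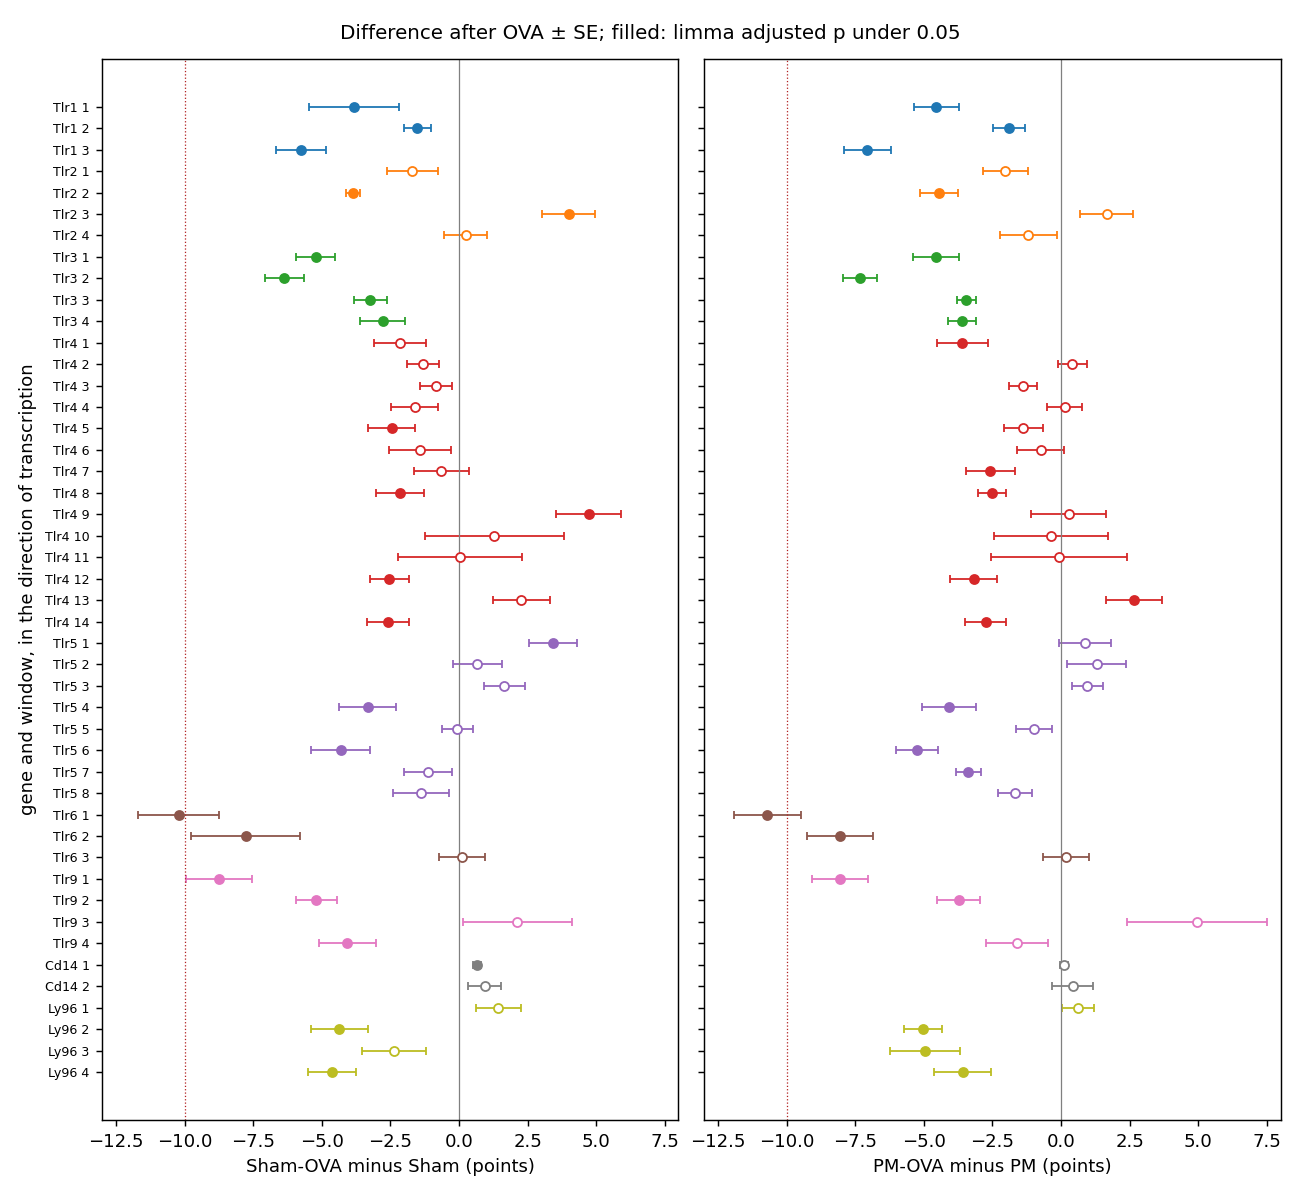
Difference in %DNAm after OVA for each of the 46 windows (points ± SE between libraries; left, Sham-OVA minus Sham; right, PM-OVA minus PM), with filled symbols for a limma adjusted p under 0.05 and a dotted line at -10 points. Tlr1, Tlr3 and Tlr9 have their filled symbols left of 0 in both panels, and Tlr6 window 1 is the 1 symbol beyond the dotted line.

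Tlr6, the partner of TLR2 for diacylated lipopeptides, held the window with the largest fall of the 46. Tlr6 window 1 (chr5:64959328-64961226, GRCm38; 1899 bp) has 50 CpG dinucleotides, 26 of them upstream and 24 downstream of the annotated start, and 26 within 500 bp of it. It covers 164 bp of untranslated exon, 606 bp of intron and 1129 bp upstream of the gene. Sham libraries ran from 29.1% to 38% with a median of 34.8%, and Sham-OVA libraries from 21.7% to 28% with a median of 23.8%. PM libraries ran from 32.6% to 36.3% with a median of 34.4%, and PM-OVA libraries from 19.9% to 28.8% with a median of 22.9%. Every OVA library was thus under every unchallenged library of its maternal group. The mean fell from 34.3% ± 3.04 (SD, n = 7) without to 24.1% ± 2.36 (SD, n = 7) with OVA in Sham offspring, a change of -10.2 points on the percent scale (-0.70 as log2 ratio, SE 0.0948; limma adjusted p = 2.30e-06). For PM offspring it fell from 34.3% ± 1.41 (SD, n = 7) without to 23.6% ± 3.11 (SD, n = 8) with OVA, a change of -10.7 points (-0.74 as log2 ratio, SE 0.0918; limma adjusted p = 3.85e-07).

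A window was called a differentially methylated region (DMR) here when it was called and also differed by at least 10 points, which keeps the minimum difference of the study but relaxes its threshold on p. Tlr6 window 1 was the 1 DMR among the 46 in either kind of offspring, where 0.775% of all windows in Sham and 0.584% in PM were DMRs (0.296% and 0.321% lower). At the study's threshold of 1e-06 it was lost as a DMR in Sham and remained a DMR in PM offspring. Of all windows, 0.398% in Sham and 0.355% in PM were DMRs at that threshold. That threshold was passed by 1 receptor window in Sham and 3 in PM, and by 1.14% and 2.12% of all windows. With a minimum of 5 points there were 7 DMRs in each, when 5.96% and 5.89% of all windows were DMRs. The difference lay so near the minimum that single libraries decided the DMR call in Sham. It was lost (0 DMRs) without Sham-OVA replicate 1, 4 or 6 or without Sham replicate 6 or 7, when the difference was as small as -9.61 points, although the adjusted p remained under 0.05 in each fit. Centring the libraries gave -9.82 and -9.72 points and 0 DMRs in both, where 0.815% and 0.608% of all windows were DMRs.

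**Figure D3:**
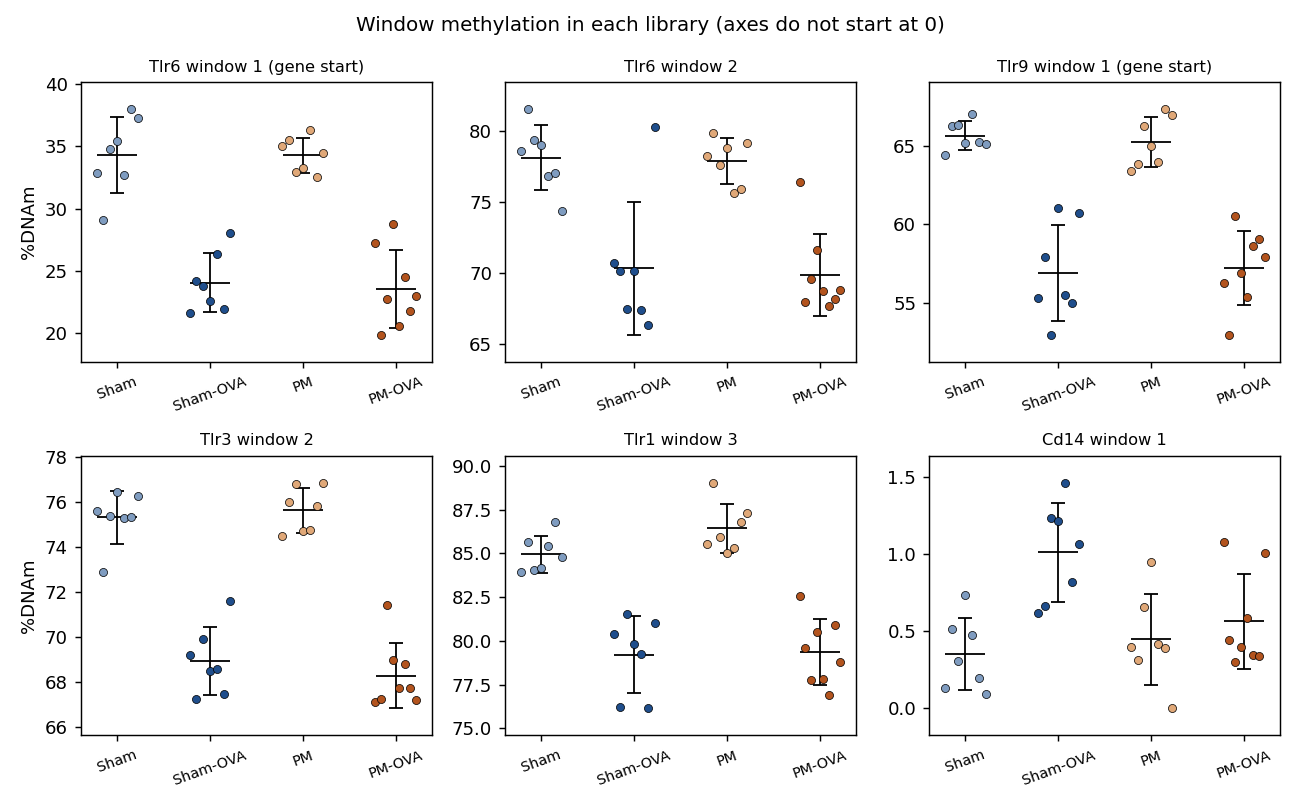
%DNAm of 6 windows in each library (1 dot per library; bars give group mean ± SD; y axes in percent and not starting at 0). In Tlr6 window 1, Tlr9 window 1, Tlr3 window 2 and Tlr1 window 3 the OVA libraries lie under all unchallenged libraries of the same maternal group, whereas Tlr6 window 2 and Cd14 window 1 overlap.

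The fall extended into the gene but not to its end. Tlr6 window 2 (chr5:64955481-64959316), almost all intronic, went from 78.1% ± 2.29 (SD, n = 7) without to 70.3% ± 4.7 (SD, n = 7) with OVA in Sham (limma adjusted p = 0.000416) and from 77.9% ± 1.61 (SD, n = 7) without to 69.9% ± 2.91 (SD, n = 8) with OVA in PM offspring (limma adjusted p = 0.000141). The groups overlapped because Sham-OVA replicate 7 (80.3%) and PM-OVA replicate 1 (76.4%) stood above the others. Without the first of these libraries the difference in Sham was -9.43 points, and without the second the difference in PM was -8.98 points. Tlr6 window 3, with the coding exon, was at 84.7% in Sham and 84.9% in Sham-OVA and did not pass the test in either contrast (limma adjusted p = 0.956 and 0.895). The difference thus shrank along the gene, to 0.106 points in Sham in its last window.

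Tlr1, which encodes the other partner of TLR2, lies next to Tlr6 on the same strand, with its start 26534 bp away. All 3 of its windows fell in both kinds of offspring. The largest fall was in window 3 (chr5:64918487-64926412), which holds the latter part of the coding exon and the sequence behind the gene. Sham libraries ran from 83.9% to 86.8% (median 84.8%) and Sham-OVA libraries from 76.2% to 81.5% (median 79.8%), without overlap. PM libraries ran from 85% to 89% (median 85.9%) and PM-OVA libraries from 76.9% to 82.6% (median 79.2%), again without overlap. The differences were -5.76 points in Sham (limma adjusted p = 1.24e-05) and -7.06 points in PM offspring (limma adjusted p = 1.50e-07). Window 1, with the start, also fell (-3.82 and -4.54 points), as did window 2 (-1.52 and -1.89 points). With centred libraries, windows 1 and 2 no longer passed the threshold in either contrast. Window 1 then differed by -3.42 and -3.56 points (limma adjusted p = 0.0544 and 0.0558). Window 2 differed by -1.125 and -0.906 points (limma adjusted p = 0.111 and 0.159).

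The flanks of this pair held windows that fell and windows that rose. Beyond Tlr1, a window of the annotated gene AC161757.1 (chr5:64898865-64903431) fell (-5.12 and -5.62 points; limma adjusted p = 1.63e-07 and 7.41e-09). On the other side, the short start window of Fam114a1 (chr5:64969970-64970395) was at 0.916% in Sham and 0.797% in Sham-OVA and did not pass the test. The next Fam114a1 window (chr5:64970398-64974430) rose by 5.37 and 3.92 points (limma adjusted p = 2.25e-06 and 5.65e-05). Further into Fam114a1, a window (chr5:64979946-64986220) fell (-2.18 and -2.73 points; limma adjusted p = 0.0073 and 0.000475), and the one after it fell in PM offspring (-2.37 points, limma adjusted p = 0.00795). Both directions were thus present beyond the neighbouring start. These neighbours were taken by position.

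Among the endosomal receptors, Tlr3 fell throughout. All 4 of its windows were lower after OVA in both kinds of offspring, with differences from -6.37 to -2.78 points in Sham and from -7.33 to -3.45 points in PM. Its window 2 (chr8:45403962-45410216), with 362 bp of untranslated exon and 5893 bp of intron, had the smallest p of the 46 windows in both OVA contrasts. Sham libraries ran from 72.9% to 76.4% (median 75.4%) and Sham-OVA libraries from 67.3% to 71.6% (median 68.6%). PM libraries ran from 74.5% to 76.8% (median 75.8%) and PM-OVA libraries from 67.1% to 71.4% (median 67.8%). There was no overlap in either case. The mean went from 75.3% ± 1.17 (SD, n = 7) without to 68.9% ± 1.5 (SD, n = 7) with OVA in Sham (log2 ratio -0.45, SE 0.0513; limma adjusted p = 2.37e-07) and from 75.6% ± 0.987 (SD, n = 7) without to 68.3% ± 1.45 (SD, n = 8) with OVA in PM offspring (limma adjusted p = 1.15e-08). Window 1, which holds the start and the promoter printed above, fell from 60.6% to 55.3% in Sham (limma adjusted p = 3.24e-05) and from 60.2% to 55.7% in PM (limma adjusted p = 8.40e-05). Windows 1 and 2 also overlap the annotated gene Gm45542, so their values are not of Tlr3 alone.

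Windows of other genes followed Tlr3 window 2 closely over the 29 libraries. The 3 closest by Pearson's r were in Igf1r (chr7:68189208-68192412, r = 0.969), Carmil1 (chr13:24091744-24098135, r = 0.967) and Sema3c (chr5:17660129-17670359, r = 0.967). The Igf1r window was at 83.2% in Sham, 73.8% in Sham-OVA, 82.6% in PM and 72.6% in PM-OVA. These coefficients include the difference between OVA and unchallenged libraries, which all 3 windows share with Tlr3. They were picked as the highest, from the top window of each gene. Genes of the pathway, leucocyte and structural lists counted below were left out of that search.

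Tlr9 fell around its start and in the first part of its coding exon. In window 1 (chr9:106218178-106223418), most of which lies upstream of the gene, Sham libraries ran from 64.4% to 67% (median 65.2%) and Sham-OVA libraries from 53% to 61% (median 55.5%). PM libraries ran from 63.4% to 67.3% (median 65%) and PM-OVA libraries from 53% to 60.5% (median 57.4%). The OVA libraries were lower without overlap, and they were spread more widely than the unchallenged ones. The fall was from 65.6% ± 0.916 (SD, n = 7) without to 56.9% ± 3.06 (SD, n = 7) with OVA in Sham (log2 ratio -0.52, SE 0.0674; limma adjusted p = 1.23e-06) and from 65.2% ± 1.6 (SD, n = 7) without to 57.2% ± 2.36 (SD, n = 8) with OVA in PM offspring (log2 ratio -0.48, SE 0.0653; limma adjusted p = 1.60e-06). Window 2 (chr9:106223521-106225678), coding throughout, fell from 90.5% to 85.3% in Sham (limma adjusted p = 5.39e-06) and from 90.6% to 86.9% in PM (limma adjusted p = 9.50e-05).

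The rest of the Tlr9 coding exon looked unlike its beginning. Window 3 (chr9:106225685-106226477) packs its CpGs into 793 bp and was not lower after OVA. It had 32.7% ± 2.36 (SD, n = 7) without and 34.8% ± 4.74 (SD, n = 7) with OVA for Sham offspring, and 31.9% ± 4.05 (SD, n = 7) without and 36.8% ± 5.75 (SD, n = 8) with OVA for PM offspring. It passed the test in neither contrast (limma adjusted p = 0.504 and 0.0672), and its libraries were the most scattered of the 46 windows, with a median SD within groups of 4.39 points against 1.59 points for the median window. Adjacent stretches of the same coding exon thus stood at 90.5% and 32.7% in Sham. Window 4 was called in Sham alone, at -4.06 points (limma adjusted p = 0.00648), beside -1.59 points in PM (limma adjusted p = 0.247). The difference between those effects did not pass the test (limma adjusted p = 0.741).

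In Tlr2, the shared partner of TLR1 and TLR6, the windows moved in opposite directions. Window 1 with the start did not pass the test, at 28.1% in Sham and 26.4% in Sham-OVA (limma adjusted p = 0.14) and at 28.8% in PM and 26.8% in PM-OVA (limma adjusted p = 0.0601). Window 2 (chr3:83838557-83841283), mostly the intron behind the start, fell. Its Sham libraries ran from 53.2% to 54.1% (median 53.7%) and its Sham-OVA libraries from 49% to 50.5% (median 50%). Its PM libraries ran from 52.9% to 56.7% (median 53.5%) and its PM-OVA libraries from 46.9% to 51.3% (median 49.5%). The groups did not overlap, and the differences were -3.85 points in Sham (limma adjusted p = 7.39e-05) and -4.45 points in PM (limma adjusted p = 5.39e-06). Window 3 (chr3:83836745-83838554), all coding, rose in Sham offspring from 83.1% ± 1.72 (SD, n = 7) without to 87.1% ± 1.9 (SD, n = 7) with OVA, by 4 points (limma adjusted p = 0.000995), and in PM the difference was 1.66 points (limma adjusted p = 0.141). Window 4 passed neither test.

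Tlr5 had both a rise at its start and falls further in. Window 1 (chr1:182954428-182956620) rose in Sham offspring, from 30.1% ± 1.66 (SD, n = 7) without to 33.5% ± 1.65 (SD, n = 7) with OVA, by 3.43 points (limma adjusted p = 0.00615). Sham libraries ran from 27.6% to 32.2% and Sham-OVA libraries from 31.4% to 36.4%, so that a few overlapped. In PM offspring it was at 32.1% without and 33% with OVA (limma adjusted p = 0.473). Window 6 (chr1:182968642-182972816), with untranslated exon and the first coding bases, fell (-4.31 and -5.25 points; limma adjusted p = 0.00045 and 3.90e-05), as did window 4 (-3.32 and -4.09 points). Window 7 fell by 3.37 points in PM offspring (limma adjusted p = 0.000176) and differed by -1.12 points in Sham (limma adjusted p = 0.237). The remaining 4 windows, among them an intronic one at 25.5% in Sham, passed the test in neither contrast.

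In the gene of the lipopolysaccharide receptor, the largest fall was smaller than in each other receptor gene, in both OVA contrasts. Tlr4 was covered by 14 windows. Windows 4 to 12 were wholly intronic, and window 3 held most of the coding bases (2248 bp). Of the 14 windows, 5 were called in Sham (1 higher and 4 lower) and 6 in PM (1 higher and 5 lower). These shares of 35.7% and 42.9% were near those of all windows (35.6% and 44.1%). The largest fall among them was -3.6 points, at the start in PM. Window 1, with the start, was at 68.5% in Sham and 66.4% in Sham-OVA (limma adjusted p = 0.0831) and fell from 69.6% to 66% in PM offspring (limma adjusted p = 0.00262). With centred libraries 4 of the 6 calls in PM, that of window 1 among them, and 1 of the 5 in Sham were lost. Window 9 (chr4:66892701-66902546), intronic in GENCODE M21, rose in Sham from 65.2% ± 2.21 (SD, n = 7) without to 69.9% ± 2.21 (SD, n = 7) with OVA, by 4.72 points (limma adjusted p = 0.00449). Sham libraries ran from 60.6% to 67.7% and Sham-OVA libraries from 66.6% to 73.2%. In PM offspring the same window was at 67% ± 2.42 (SD, n = 7) and 67.3% ± 2.86 (SD, n = 8), with limma adjusted p = 0.864. Window 13 was the higher one in PM, by 2.66 points (limma adjusted p = 0.0329), and differed by 2.27 points in Sham (limma adjusted p = 0.0942). Windows 10 and 11 varied widely between libraries of the same group, with SDs of up to 6.23 points, so a difference as small as those of the other windows was not detectable there.

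The co-receptors differed from each other. Ly96 fell within the gene and not at its start. Window 1 was at 55.6% in Sham, 57.1% in Sham-OVA, 55.8% in PM and 56.4% in PM-OVA and passed neither test. Window 2 (chr1:16688533-16694465) fell from 54.2% ± 1.84 (SD, n = 7) without to 49.9% ± 2 (SD, n = 7) with OVA in Sham (limma adjusted p = 0.000594) and from 55.1% ± 1.29 (SD, n = 7) without to 50.1% ± 1.36 (SD, n = 8) with OVA in PM (limma adjusted p = 5.98e-05). Window 4 fell in both (-4.62 and -3.58 points), although its call in PM was lost with centred libraries (limma adjusted p = 0.0743), and window 3 fell in PM (-4.96 points), with -2.37 points for Sham (limma adjusted p = 0.142).

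Cd14 was nearly unmethylated over its first window (chr18:36725788-36726758, 971 bp, exonic throughout). Sham libraries ran from 0.0909% to 0.732% (median 0.31%), Sham-OVA libraries from 0.619% to 1.46% (median 1.06%), PM libraries from 0% to 0.949% (median 0.396%) and PM-OVA libraries from 0.301% to 1.08% (median 0.422%). The respective means were 0.351% ± 0.234 (SD, n = 7), 1.01% ± 0.319 (SD, n = 7), 0.447% ± 0.295 (SD, n = 7) and 0.563% ± 0.309 (SD, n = 8). All groups were thus at about 1% or less, and the rise of 0.66 points in Sham offspring (limma adjusted p = 0.00116) was no longer past the threshold on the percent scale (limma adjusted p = 0.0642). The second window, with the end of the gene, was at 48.4% to 49.3% in the 4 groups and passed neither test.

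Myd88, the adaptor shared by nearly all of these receptors, had no window under its own name, but 4 windows that the table names Slc22a14 overlap its gene body. The window with the Myd88 start (chr9:119341240-119341803, which also overlaps Acaa1a) was at 0.0527% in Sham, 0.241% in Sham-OVA, 0.124% in PM and 0.487% in PM-OVA. The next was at 0.65% in Sham, and the others at 20.7% and 77.9%. None of the 4 passed the test for OVA in Sham or in PM (limma adjusted p from 0.19 to 0.981). These windows are not among the 46.

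Averaged over the windows of a gene, the OVA difference was largest in Tlr6 (-5.96 points in Sham and -6.19 in PM), followed in Sham by Tlr3 (-4.4 and -4.74 points), Tlr9 (-3.97 and -2.1 points), Tlr1 (-3.7 and -4.5 points) and Ly96 (-2.48 and -3.24 points). Tlr4 (-0.67 and -1.08 points), Tlr5 (-0.556 and -1.53 points), Tlr2 (-0.327 and -1.5 points) and Cd14 (0.8 and 0.27 points) were nearer to 0. Such an average hides the opposite moves within Tlr2, Tlr4 and Tlr5. Over the 8 windows with a gene start the median difference was -2.98 points for Sham and -4.07 points for PM, with 5 called in each, and over the other 38 windows it was -1.47 and -1.63 points, with 20 and 19 called. Over all windows 35.6% and 44.1% were called.

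**Figure D4:**
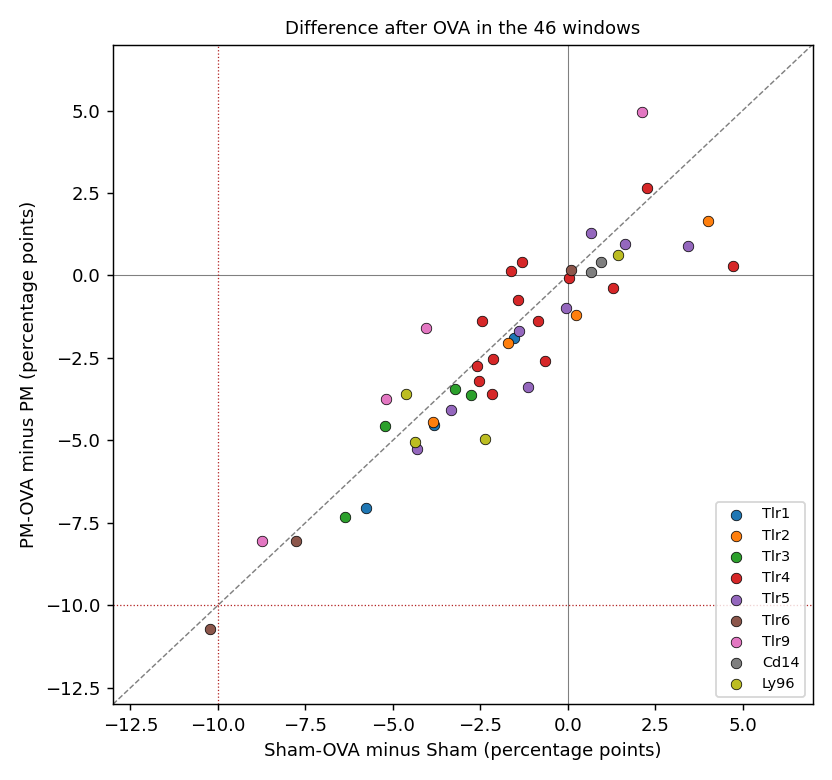
Difference in %DNAm after OVA in Sham offspring (x axis, points) against that in PM offspring (y axis, points) for the 46 windows, 1 dot per window coloured by gene, with a dashed line of equal differences and dotted lines at -10 points. The dots lie along the dashed line (r = 0.907), with Tlr6 window 1 at the lower left and Tlr4 window 9 among those furthest to its right.

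Maternal PM2.5 exposure was then compared at the same OVA status. Without OVA, 0 of the 46 windows differed between PM and Sham by limma's adjusted p (0% of all windows), and 2 had an unadjusted p under 0.05, against 5.79% of all windows. The smallest p was that of Tlr9 window 4, where Sham had 50.6% ± 1.61 (SD, n = 7) and PM had 47.9% ± 1.61 (SD, n = 7), with limma adjusted p = 0.842. With OVA, 0 windows differed between PM-OVA and Sham-OVA, and 3 had an unadjusted p under 0.05, against 5.96% of all windows. Cd14 window 1 had the smallest p, with a difference of -0.448 points (limma adjusted p = 0.816). Over the 3 windows of Tlr6 the differences were between -0.505 and 0.0149 points with OVA and between -0.218 and -0.0198 points without it. For Tlr6 window 1 the 95% interval of the log2 ratio was -0.19 to 0.20 without OVA and -0.23 to 0.14 with OVA.

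Whether the OVA difference itself depended on the dam was tested by the interaction. Again 0 of 46 windows passed limma's adjusted p, and 3 had an unadjusted p under 0.05, against 7.4% of all windows. Cd14 window 1 (-0.543 points, limma adjusted p = 0.621) and Tlr4 window 9 (-4.44 points, limma adjusted p = 0.621) had the smallest p-values. The 6 windows called in Sham alone and the 5 called in PM alone were therefore not shown to respond differently in the other offspring. For Tlr6 window 1 the interaction was -0.485 points (limma adjusted p = 0.956).

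Since whole lung was sequenced, a change in methylation within cells and a change in the mixture of cells cannot be told apart. Lists of other genes of the Toll-like receptor pathway, of leucocyte markers and of lung structural cells were counted for comparison. The leucocyte list (17 of 18 genes with windows, 83 windows) had 16 windows higher and 32 lower in Sham offspring, and 11 higher and 39 lower in PM, so that 57.8% and 60.2% were called against 35.6% and 44.1% of all windows. Its library means ran from 72% to 73% in Sham, 69.9% to 71.4% in Sham-OVA, 72.6% to 73.6% in PM and 69.9% to 70.7% in PM-OVA, without overlap between OVA and unchallenged libraries. Ptprc, which encodes the pan-leucocyte antigen CD45, had 3 DMRs in each contrast, with differences down to -19.1 points for Sham and -16.5 points for PM. DMRs made up 0.775% of all windows in Sham and 0.584% in PM (0.296% and 0.321% lower). Of its 83 windows, the leucocyte list had 7 DMRs that were lower and 1 that was higher in Sham, and 6 and 1 in PM. The higher one lay in Spi1, which encodes the myeloid transcription factor PU.1 (13.9 points for Sham and 13.5 points for PM), and another window of the same gene was among the lower ones in both. The means over the 46 receptor windows ran from 67.3% to 68.4% in Sham, 64.9% to 67.1% in Sham-OVA, 67.5% to 68.4% in PM and 65% to 66.5% in PM-OVA, and did not overlap either. The structural list (18 genes, 167 windows) had 54 windows higher and 28 lower in Sham, and 42 higher and 37 lower in PM (49.1% and 47.3% called, the latter near the share of all windows). It had 3 DMRs that were higher and 1 that was lower in Sham, and 1 of each in PM. The lower one, in Pecam1, differed by -18 points in Sham and -15.9 points in PM. Another Pecam1 window was higher (12.5 and 11.6 points), as were windows of Hopx (13.2 points) and Cdh5 (11.1 points) in Sham. The list's mean was 63% in Sham, 64.3% in Sham-OVA, 63.6% in PM and 63.9% in PM-OVA. The mean of the leucocyte list was thus lower with OVA, as was that of the receptor windows, although single windows of the list rose, and its part in the result was not tested. Expression of tissue markers was not analysed here, so the labelled tissue was not checked against them.

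Other genes of the pathway were mixed in direction. Of 290 windows in 34 genes, 58 were higher and 82 lower after OVA in Sham offspring, and 42 higher and 95 lower in PM, so that 48.3% and 47.2% were called, against 35.6% and 44.1% of all windows. Lower windows made up 28.3% and 32.8% of the list, beside 22.3% and 34.8% of all windows, so the share of falls in PM offspring was near the background. The further receptors Tlr7, Tlr8, Tlr11, Tlr12 and Tlr13 had no called window that was higher, and 2, 2, 1, 2 and 3 of their windows respectively were lower in Sham. Tlr7, Tlr8 and Tlr13 are on the X chromosome, where Sham replicate 1 stood apart. Without that library, a comparison added after the data were seen, the counts of these 5 genes were the same, and the whole list had 53 windows higher and 79 lower in Sham, and 42 higher and 97 lower in PM. The kinase gene Irak3, whose product restrains Toll-like receptor signalling in macrophages, had 11 of 17 windows lower in Sham and 12 in PM and 0 higher in both. In the opposite direction, Ikbke, a kinase upstream of interferon genes, had 6 of 8 windows higher in Sham and 5 in PM, and Tab1, a partner of the kinase TAK1, had 5 and 4 of 10 windows higher, with 0 lower in both genes. Falls were thus not shared by all genes of the pathway. These 3 genes are named after their counts were seen.

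Of all windows, 0.775% in Sham and 0.584% in PM were DMRs (0.296% and 0.321% lower). The pathway list had 6 DMRs among its 290 windows in each contrast, all lower. Pik3ap1, an adaptor that links Toll-like receptors to phosphoinositide signalling, held 4 of them in Sham and 3 in PM, with its largest fall in the same window (-17 and -16.9 points; chr19:41329980-41333147; limma adjusted p = 1.77e-08 and 6.31e-09). Ly86 (MD-1), the partner of the receptor-like protein CD180, had a window that fell in both (-15.3 and -15.6 points; chr13:37345485-37348749), and Cd180 itself a DMR in PM offspring (-11 points). Tnfaip3 (A20), an inhibitor of NF-kB signalling, fell in both (-11 and -12.8 points; chr10:19007783-19011783). Each of the DMRs named here differed by more points than Tlr6 window 1 in the same contrast.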

How the data were processed

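Lung DNA (labelled RML, a right lobe) from 29 libraries in 4 groups was analysed. The labels and the methods of the study state that DNA was converted enzymatically with a lambda spike-in. The authors used Trim Galore for trimming and DRAGEN for mapping to GRCm38, and averaged calls in SeqMonk over windows of about 100 CpGs with a minimum number of informative CpGs. The deposited values are percent methylation per window and library, named by the authors for an overlapping Ensembl gene. Coverage is not in the table, and no normalisation between libraries is described.

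Windows were located on GRCm38 with the GENCODE M21 annotation. Windows with at least 3 values per group (259167 of 260686) were tested in 1 model over the 4 groups with limma 3.58.1 (R 4.3.3) on log2 of methylated over unmethylated percent after adding 1 point to each. P-values were 2-sided with Benjamini-Hochberg adjustment over all tested windows, and a call was an adjusted p under 0.05. This scale replaced the study's test of reads. On simulated data for OVA in Sham, with 258503 windows, the rule for DMRs recovered 198 of 200 changed windows and called 0 unchanged ones. That rule adds the minimum difference to the adjusted p. The simulation therefore gives no error rate for calls by adjusted p alone, on which the counts of called windows rest. It also held far fewer changed windows than were called in the real data. The genes, the lists and the rule for windows given in full (those with a gene start, DMRs, and the smallest p per contrast and per gene) were chosen with earlier results of these data known. Other windows were named after their values were seen. Replicate numbers, taken from the sample titles, were checked for pairing. Alternatives covered the pseudocount, scale, centring, shrinkage, thresholds, the samples fitted, window choice, a replicate block and leaving out each library. Figures were drawn with matplotlib 3.10.9.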

Additional observations from a re-analysis of the deposited data

Results flagged for a closer look

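Among 184 groups of libraries (46 windows in 4 groups), 15 had a highest or lowest library set apart from the others of its group by Dixon's criterion, which flags about 5% of groups by chance. In Sham offspring, replicate 2 was lowest in Tlr1 window 1 (64.4%, others 69% to 71.5%) and Tlr3 window 2 (72.9%, others 75.3% to 76.4%) and highest in Tlr6 window 3 (88.4%, others 83.1% to 85.3%). Sham replicate 7 was lowest in Tlr2 window 4 (81.1%), Tlr5 window 5 (82.2%) and Tlr9 window 2 (88.2%). Sham replicate 1 was highest in Tlr3 window 4 (91.1%, others 89.1% to 89.5%), and Sham replicate 5 was lowest in Tlr4 window 9 (60.6%, others 65% to 67.7%).

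In Sham-OVA, replicate 7 was highest in Tlr6 window 2 (80.3%, others 66.3% to 70.7%). In PM, replicate 6 was lowest in Tlr4 window 9 (62%, others 66.5% to 69.7%), replicate 3 was lowest in Tlr4 window 10 (74.2%) and replicate 4 was highest in Tlr4 window 8 (78.8%). In PM-OVA, replicate 3 was highest in Tlr3 window 2 (71.4%, others 67.1% to 69%), and replicate 1 was highest in Tlr6 window 2 (76.4%, others 67.7% to 71.6%) and Cd14 window 2 (52.1%, others 47.5% to 49.6%). The flagged libraries did not share a direction.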

How the results depend on the processing

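Counts of called receptor windows stayed within 1.5 times under most alternatives. With the study's p threshold of 1e-06, 1 window for OVA in Sham and 3 for OVA in PM passed (1.14% and 2.12% of all windows). There were then 0 DMRs for OVA in Sham and 1 for OVA in PM (0.398% and 0.355% of all windows). With a minimum of 5 points there were 7 DMRs in each OVA contrast (5.96% and 5.89% of all windows), and with centred libraries 0 in each (0.815% and 0.608% of all windows). Leaving out single libraries gave 24 to 26 called windows and 0 to 1 DMRs for OVA in Sham, 23 to 27 called windows and 1 to 1 DMRs for OVA in PM, and 0 called windows in the other 3 contrasts. No called window changed sign under any of these alternatives, but when 1 library was left out the difference in points took the other sign in 5 of the 21 windows not called in Sham and 6 of the 22 not called in PM, and in 20 and 19 of the 46 windows for PM without and with OVA, so differences near 0 have no settled direction. A replicate block over the label numbers moved no count by over 1.5 times. Of 42 pairs of the same number in different groups, 3 correlated over 0.1 (range -0.0705 to 0.13), so the numbers were not taken to pair animals, and with the replicate block Tlr4 window 7 was no longer called for OVA in PM (-2.58 points, limma adjusted p = 0.0612). These numbers are those of the sample titles. In 10 libraries the library name has another number or, in 2 PM-OVA libraries, the letters Rel, which the labels do not explain. In alternatives chosen after seeing the data, a replicate block by library name gave 25 called windows in each OVA contrast (36.4% and 40.9% of all windows), and leaving out both Rel libraries gave 25 and 24 (35.2% and 39.7%). Of 36 pairs of the same library number, 2 correlated over 0.1. Read counts per window are not in the table, so the counting error behind a value could not be given.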
